A study of Caenorhabditis elegans with 2 samples.

Results

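The genes of the mitochondrial genome of Caenorhabditis elegans were compared with ChIP-seq peaks of HLH-12. HLH-12 is a transcription factor of the basic helix-loop-helix family that is needed for the distal tip cells, the leader cells of the gonad arms, to migrate. The members were all 36 genes that the Ensembl annotation of the WBcel235 assembly (the assembly also called ce11) places on MtDNA, out of 46926 annotated genes. They comprise 12 protein-coding genes, 22 tRNA genes and 2 rRNA genes, and all 36 lie on the plus strand of a circle of 13794 bp. ChIP-seq sequences the DNA recovered with an antibody, and a peak is a stretch where a peak caller found more reads than its background. The DNA came from whole young adult hermaphrodites of strain OP538, collected 64 hours after synchronization as starved L1 larvae. These animals carry the unc-119(tm4063) allele and the transgene wgIs538, which gives HLH-12 a C-terminal GFP-FLAG tag, and an anti-GFP antibody was used. Both samples belong to this 1 group, as biological replicates 1 and 2 of 1 transgenic line, and no sample without the tag was analysed here. DNA of whole animals mixes all tissues, so no value belongs to a cell type. Each replicate had a relaxed list of peaks, and the authors also deposited a relaxed list from both replicates pooled. They also deposited a list of peaks that passed IDR, a measure of how well peak ranks repeat between sets of peaks. A place in the IDR list does not mean a peak in each replicate list. Of its 11 merged mitochondrial intervals, 7 had a peak in both.

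The mitochondrial genome is a multicopy circle inside the organelle, separate from the nuclear chromosomes. Its protein-coding genes encode subunits of the respiratory chain and of ATP synthase, and its rRNAs and tRNAs serve the ribosome that translates them. Its genes stand nearly end to end, and the longest stretch without a gene is an AT-rich region that in animals is commonly held to contain signals for replication and transcription. Nuclear genes supply the remaining subunits and the proteins that copy and transcribe this DNA. Copies of MtDNA per cell far outnumber nuclear copies, and whether the deposited signal was scaled to copies of DNA is not known here. Peak heights on MtDNA and on nuclear chromosomes can therefore not be compared per molecule.

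The stretches that the peaks turn on are given as 101 bp of the plus strand of WBcel235, 5′ to 3′, each centred on a summit, the position of greatest signal within a peak. Capitals mark CANNTG, the E-box, which is the hexamer known to be bound by basic helix-loop-helix proteins. The strongest summit lay in CYTB (chrM:4625-4725) and the next strongest in ND5 (chrM:12373-12473). The COX3 window (chrM:5956-6056) had the highest GC content among the IDR summits, the COX1 window (chrM:8790-8890) held the E-box variant CAGGTG, and the tRNA-Lys window (chrM:3253-3353) held the only IDR summit inside a tRNA gene. The middle of ND6 (chrM:281-381) and the middle of the AT-rich stretch (chrM:13511-13611), where no peak was listed, are given for contrast.
CYTB summit: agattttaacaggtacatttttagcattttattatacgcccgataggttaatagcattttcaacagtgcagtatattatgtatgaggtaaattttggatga
ND5 summit: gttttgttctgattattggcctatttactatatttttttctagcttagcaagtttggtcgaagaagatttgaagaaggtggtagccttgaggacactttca
COX3 summit: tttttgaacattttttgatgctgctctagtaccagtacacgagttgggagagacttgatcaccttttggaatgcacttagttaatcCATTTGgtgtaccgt
COX1 summit: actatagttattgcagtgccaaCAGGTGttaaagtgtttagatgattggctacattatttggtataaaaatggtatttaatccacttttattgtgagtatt
tRNA-Lys summit: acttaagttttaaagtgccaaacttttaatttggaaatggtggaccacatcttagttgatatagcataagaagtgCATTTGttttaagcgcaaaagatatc
ND6 middle: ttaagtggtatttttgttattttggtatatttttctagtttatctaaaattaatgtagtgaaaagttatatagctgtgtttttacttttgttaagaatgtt
AT-rich middle: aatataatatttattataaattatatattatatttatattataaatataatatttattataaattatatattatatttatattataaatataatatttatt
The COX3 window was 39.6% GC and the CYTB window 29.7%, against 20.8% for the middle of ND6 and 0% for the middle of the AT-rich stretch.

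Peaks lay over the bodies of the larger mitochondrial genes and left out the AT-rich stretch. The IDR list held 15 peaks on MtDNA, which merged into 11 separate intervals, and the pooled relaxed list held the same 15 peaks and no other on MtDNA. The replicate 1 list held 10 mitochondrial peaks in 7 merged intervals and the replicate 2 list held 14 in 10. At an overlap of at least 1 bp, IDR peaks overlapped 15 of the 36 mitochondrial genes, against 1.02% of the 46890 nuclear genes in the same list. The replicate 1 list overlapped 12 of the 36 (nuclear genes 27.2%) and the replicate 2 list overlapped 15 of the 36 (nuclear genes 29.9%), and 11 genes were overlapped in both. The pooled list overlapped the same 15 genes as the IDR list, and 12.4% of nuclear genes. Over all lists, 20 mitochondrial genes had no peak.

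**Figure D1:**
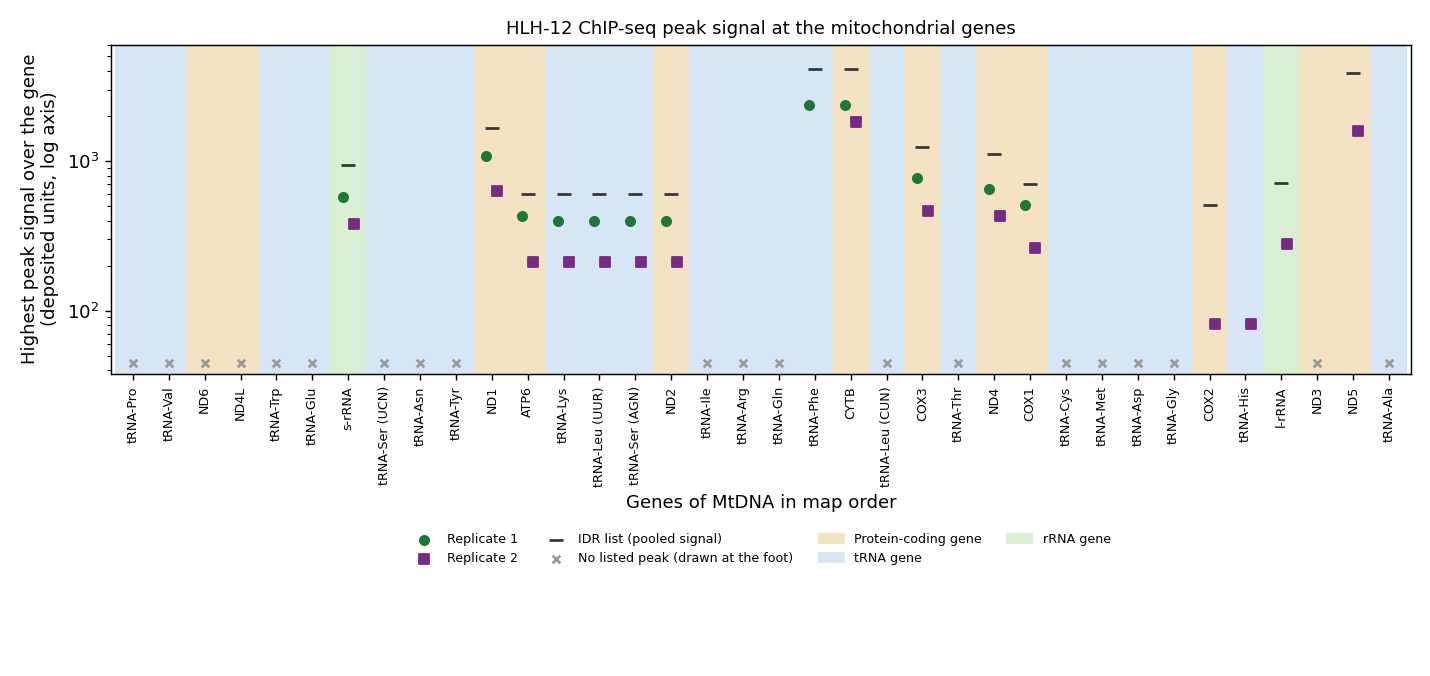
Highest signal of any listed peak over each of the 36 mitochondrial genes, in map order, on a log axis in the authors' units, with circles for replicate 1, squares for replicate 2 and dashes for the IDR list. Crosses mark the 20 genes without a peak in any list, a gene touched by a peak takes that peak's value even where the summit lies in its neighbour, and the highest values stand at CYTB and ND5.

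IDR peaks overlapped 9 of the 12 protein-coding genes, against 0.776% of 19973 nuclear protein-coding genes in the IDR list and 20.5% in the pooled list. CYTB, the cytochrome b subunit of complex III (WBGene00000829, MtDNA 4504 to 5621), carried the strongest peak, with a signal of 2377 in replicate 1 and 1810 in replicate 2 (mean 2094 ± 401, SD, n = 2). In the pooled data this peak had a signal of 4128 at its summit at 4675, and a summit of 992.1 followed at 4952 in the same interval of 644 bp. Both CYTB summits were also listed in both replicates, at 4674 and 4952 in replicate 1 and at 4686 and 4950 in replicate 2. The second of them had 803.3 in replicate 1 and 232.2 in replicate 2.

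The genes of complex I, the NADH dehydrogenase, differed among themselves. ND5 (WBGene00010967, MtDNA 11691 to 13272) carried the second strongest IDR peak, with a pooled signal of 3891 and a summit at 12423. Replicate 2 listed it at 1597 with its summit on the same base, and replicate 1 listed no peak over ND5. ND1 (WBGene00010959, MtDNA 1763 to 2635) had 1076 in replicate 1 and 630.0 in replicate 2 (852.9 ± 315.2, SD, n = 2), and ND4 (WBGene00010963, MtDNA 6506 to 7808) had 646.8 and 430.6 (538.7 ± 152.9, SD, n = 2). The ND4 summit stood at 7232 in both replicates. ND2 (WBGene00010961, MtDNA 3389 to 4269) was touched at its 5′ end alone, with 15% of its bases inside an IDR peak and no summit inside in any list. ND6 (MtDNA 113 to 549), ND4L (MtDNA 549 to 783) and ND3 (MtDNA 11356 to 11691) had no peak in any of the lists.

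All 3 mitochondrial genes of complex IV, cytochrome c oxidase, were overlapped by IDR peaks. COX3 (WBGene00010962, MtDNA 5678 to 6449) had 776.0 in replicate 1 and 464.7 in replicate 2 (620.4 ± 220.2, SD, n = 2), with summits at 6006 and 6005. COX1 (WBGene00010964, MtDNA 7827 to 9428), the longest mitochondrial gene, held 3 IDR summits, with pooled signals of 704.9, 292.3 and 357.5 in map order. Its highest peak reached 511.1 in replicate 1 and 260.9 in replicate 2 (386.0 ± 176.9, SD, n = 2), and 2 peaks were listed over it in replicate 1 and 4 in replicate 2. COX2 (WBGene00010965, MtDNA 9649 to 10348) was the weakest of the complex, at 505.9 in the pooled data and 81.3 in replicate 2, with no peak in replicate 1. ATP6 (WBGene00010960, MtDNA 2634 to 3235), a subunit of ATP synthase, had 428.4 in replicate 1 and 211.3 in replicate 2 (319.8 ± 153.5, SD, n = 2). Replicate 1 placed a summit inside ATP6 at 3023, whereas the only replicate 2 peak over it had its summit at 3320, inside tRNA-Leu (UUR).

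Both rRNA genes had IDR peaks, whereas 0 of 20 nuclear rRNA genes (0%) had one in the IDR list and 1 (5%) had one in the pooled list. Nuclear rRNA genes stand in near-identical copies, and their counts are uncertain. The small subunit gene s-rRNA (WBGene00014454, MtDNA 898 to 1593) had 574.7 in replicate 1 and 378.6 in replicate 2 (476.7 ± 138.7, SD, n = 2). The large subunit gene l-rRNA (WBGene00014472, MtDNA 10403 to 11354) had 277.2 in replicate 2, 718.3 in the pooled data and no peak in replicate 1. The covered share of the rRNA genes depended on the list more than that of any other class, at 15.8% of their bases in the IDR list, 26.5% in replicate 1 and 55.3% in replicate 2. Their IDR peaks were 109 and 151 bp wide, and those of replicate 2 were 456 bp wide.

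IDR peaks overlapped 4 of the 22 mitochondrial tRNA genes (18.2%), a share near the 22.1% of 612 nuclear tRNA genes in the same list. Pooled peaks overlapped the same 18.2%, against 61.3% of nuclear tRNA genes. The mitochondrial tRNA genes are 52 to 62 bp long. The neighbours tRNA-Lys, tRNA-Leu (UUR) and tRNA-Ser (AGN) follow ATP6, the last of them overlapping the start of ND2 in the Ensembl annotation, and all 3 were covered over their whole length in every list by the peaks of that interval. The fourth, tRNA-Phe, which carries phenylalanine, adjoins CYTB and had 73.2% of its bases inside the CYTB peak of the IDR list and 64.3% in replicate 1, but no replicate 2 peak reached it. Of the IDR summits, 1 lay inside a mitochondrial tRNA gene, at 3303 near the 3′ end of tRNA-Lys, and 12.6% of nuclear tRNA genes held an IDR summit. The tRNA-His gene was reached in replicate 2 alone, by the COX2 peak. The genes for tRNA-Pro, -Val, -Trp, -Glu, -Ser (UCN), -Asn, -Tyr, -Ile, -Arg, -Gln, -Leu (CUN), -Thr, -Cys, -Met, -Asp, -Gly and -Ala had no peak in any list, 17 in all.

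IDR summits were no closer to tRNA genes than MtDNA positions in general. The median distance from an IDR summit to the nearest mitochondrial tRNA gene was 389 bp, against 289 bp over all positions of MtDNA. Of the 15 IDR summits 1 was within 50 bp of a tRNA gene, and 16.2% of all positions are. The hexamer GTTCGA, the core of the B box that nuclear tRNA genes carry for RNA polymerase III, was searched on both strands and stood in 0% of MtDNA windows of 101 bp.

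**Figure D2:**
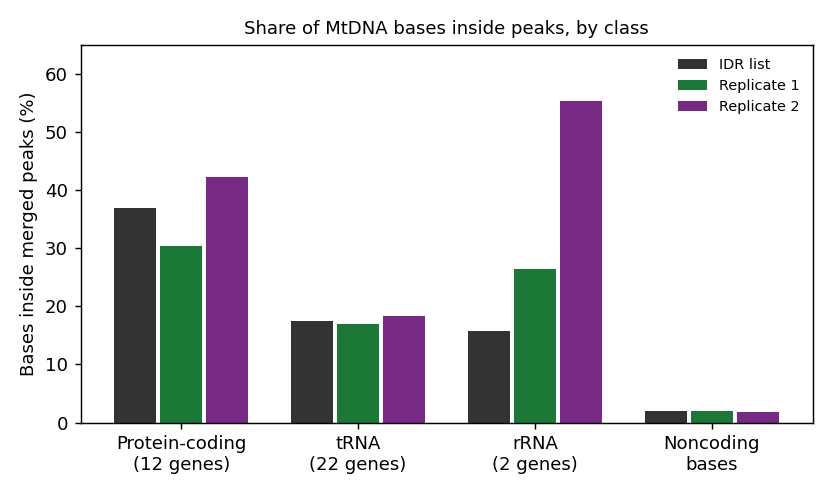
Share of bases inside merged peaks (%) for the protein-coding, tRNA and rRNA genes and the noncoding bases of MtDNA, with 1 bar for each of the IDR list, replicate 1 and replicate 2. Coding genes stand at 36.8%, 30.4% and 42.2% and noncoding bases at about 2% in each list.

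The 12 coding genes make up 75.7% of MtDNA and held 89.4% of the mitochondrial bases inside IDR peaks, 83.5% of those inside replicate 1 peaks and 79.8% of those inside replicate 2 peaks. Of the 15 IDR summits, 12 lay in coding genes, 2 in rRNA genes, 1 in a tRNA gene and 0 in noncoding bases, and 0.536% of nuclear protein-coding genes held an IDR summit. By bases, 36.8% of coding sequence, 17.4% of tRNA and 15.8% of rRNA sequence was inside IDR peaks, against 2.08% of noncoding bases. The order of the gene classes turned with the list. Replicate 1 had 30.4% of coding, 26.5% of rRNA and 17.0% of tRNA sequence inside peaks, and replicate 2 had 55.3% of rRNA, 42.2% of coding and 18.3% of tRNA sequence, while noncoding bases were lowest in each list. The AT-rich stretch (MtDNA 13328 to 13794, 467 bp) lay outside every peak of every list, 690 bp after the ND5 interval and 1217 bp before the s-rRNA interval across the end of the linear map. The next longest stretch without a gene, 18 bp between ND4 and COX1 by the Ensembl bounds, also had no peak. By the RefSeq bounds of these genes it is 109 bp long (MtDNA 7736 to 7844), and it had no peak in any list. The 11 noncoding bases inside IDR peaks were spacers of at most 8 bp between neighbouring genes. The largest gap between IDR intervals was the 2372 bp from ND5 through the AT-rich stretch, ND6 and ND4L to s-rRNA.

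Depth and mappability along MtDNA were not measured here, and a control track was not analysed here, so no value says how evenly reads covered the circle. One property of the sequence can be given. Of the 467 positions of the AT-rich stretch, 178 (38.1%) start a run of 36 bases that occurs again within MtDNA, and no other position of MtDNA does. The labels do not say how reads from such repeats were treated, and their part in the missing peaks was not tested. Exact nuclear copies existed for 12 of the 13794 runs of 36 bases (0.0870%), and 0 of these started inside an IDR interval.

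The bases inside peaks were richer in GC than those outside, though the GC ranges of their windows overlapped. MtDNA is 23.8% GC, with 28.8% inside IDR intervals and 21.5% outside them. All 15 IDR summits had a 101 bp window richer in GC than the median window of MtDNA (23.8%), and 47.0% of all windows are richer than that median. The summit windows spanned 27.7% to 39.6% GC with a median of 31.7%. The count was 9 of 10 summits in replicate 1, the exception being the summit at 3258 in tRNA-Lys with 22.8%, and 14 of 14 in replicate 2.

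When the positions of MtDNA were sorted into 4 groups by the GC content of their window, from lowest to highest, the share inside IDR peaks was 8.04%, 15.5%, 42.4% and 65.3%. The GC-richest group held 14 of the 15 IDR summits and the next group the other one. The same order appeared in replicate 1 (9.05%, 16.3%, 39.4% and 50.7%) and in replicate 2 (17.7%, 25.3%, 53.1% and 70.4%). Within coding genes alone, the share inside IDR peaks was 10.7%, 19.0%, 48.3% and 69.7%, so the gradient did not rest on the noncoding bases.

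**Figure D3:**
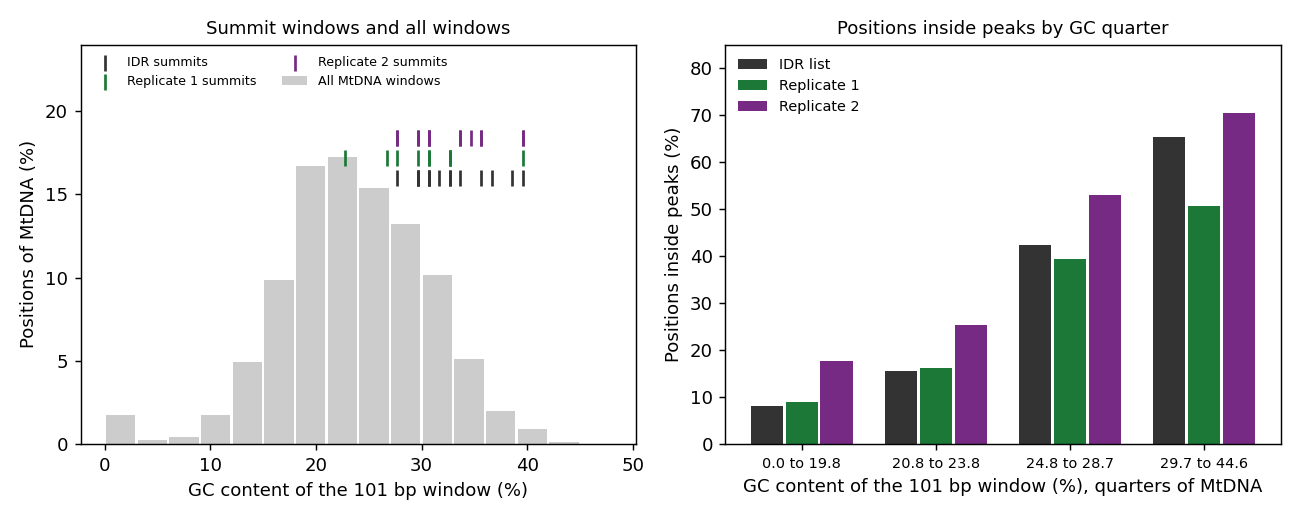
Left, the share of MtDNA positions (%) by the GC content of the 101 bp window around them in grey bars, with ticks above for the summits of each list; right, the share of positions inside peaks (%) in the 4 groups of MtDNA positions by GC content, with 1 bar per list. The IDR summits lie between 27.7% and 39.6% GC, and the covered share of the IDR list goes through 8.04%, 15.5%, 42.4% and 65.3% with increasing GC.

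Among the coding genes, the 3 without a peak were GC-poor, with 19.9% in ND6, 18.3% in ND4L and 21.4% in ND3. They were also the 3 shortest coding genes, at 437 bp or less each. Across the 12 coding genes, Spearman's rho between GC content and the share of bases inside IDR peaks was 0.80, and between length and that share it was 0.49. These are descriptions of 12 genes of 1 molecule read in the same libraries, and GC content and length themselves had a rho of 0.54. ND2, with 20.2% GC and 881 bp, was long, GC-poor and covered over 15% of its bases. Signal height among the summits did not follow composition, with a rho of 0.0018 between window GC and pooled signal over the 15 IDR summits.

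Nuclear summits gave a reference for this skew. Of the nuclear IDR summits, 207 of 230 (90%) lay in windows richer in GC than the nuclear median of 34.7%, a level that 49.5% of nuclear windows exceed. Away from small RNA genes (more than 200 bp) the count was 50 of 59 (84.7%), and among pooled nuclear summits outside the IDR list it was 3873 of 6431 (60.2%). Whether reads were recovered more readily from GC-rich DNA in these libraries was not tested, as no read depth was at hand.

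E-boxes were present at some mitochondrial summits and absent from the strongest. A window of 50 bp on either side held an E-box at 7 of 15 IDR summits (46.7%), against 15% of all MtDNA windows and 28.0% of the windows within the GC range of the summits. Replicate 1 had 4 of 10 (40.0%) and replicate 2 had 3 of 14 (21.4%), and within 25 bp of an IDR summit the share was 13.3%, against 7.55% of all windows. The 7 were the weaker ND1 summit, ATP6, tRNA-Lys, COX3, COX2 and a pair in COX1, with CATTTG at 4 of them. The ATP6 summit had CACTTG, the COX2 summit carried CATCTG, and in COX1 the second summit on the map had CAGGTG. The CYTB and ND5 summits, the strongest in the pooled data, had none within 50 bp, as the printed windows show. E-boxes also became more frequent with GC content, at 6.57%, 6.91%, 19.0% and 30.0% of windows in the 4 groups from GC-poor to GC-rich.

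The replicates gave the shared intervals in the same order of height. Of the 11 merged IDR intervals, 7 had a peak in both replicate lists. In all 7 the highest peak was stronger in replicate 1, by 1.31 to 2.03 times with a median of 1.67. Lower summits of CYTB and COX1 differed by more than this range. The second CYTB summit had 803.3 in replicate 1 and 232.2 in replicate 2. In COX1, replicate 1 listed 295.0 at 8831 and replicate 2 listed 75.5 at 8871. For nuclear IDR peaks listed in both replicates the median ratio was 1.38, with replicate 1 higher in 181 of 229 (79.0%). Ranked by signal, the 7 intervals ran CYTB, ND1, COX3, ND4, s-rRNA, COX1 and the interval from ATP6 to ND2 in both replicates. Spearman's rho was 1 and Pearson's r of the log2 signals 0.99 over these 7 intervals of 1 molecule, given as a description. The summits of the replicates lay 0 to 297 bp apart, with a median of 24 bp, against a median of 38 bp for nuclear IDR peaks. The 297 bp and the ratio of 2.03 both belong to the interval from ATP6 to ND2, so that ratio compares different summits. From COX3 down to the interval from ATP6 to ND2, the means of each pair of neighbours in this order differed by less than the SD of either. That SD includes the higher signal of replicate 1 in all 7 intervals, so it does not measure how firm the order is. COX3 and ND4 had 776.0 and 646.8 in replicate 1 and 464.7 and 430.6 in replicate 2. For s-rRNA and COX1 the values were 574.7 and 511.1 in replicate 1 and 378.6 and 260.9 in replicate 2. The interval from ATP6 to ND2 had 428.4 in replicate 1 and 211.3 in replicate 2.

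**Figure D4:**
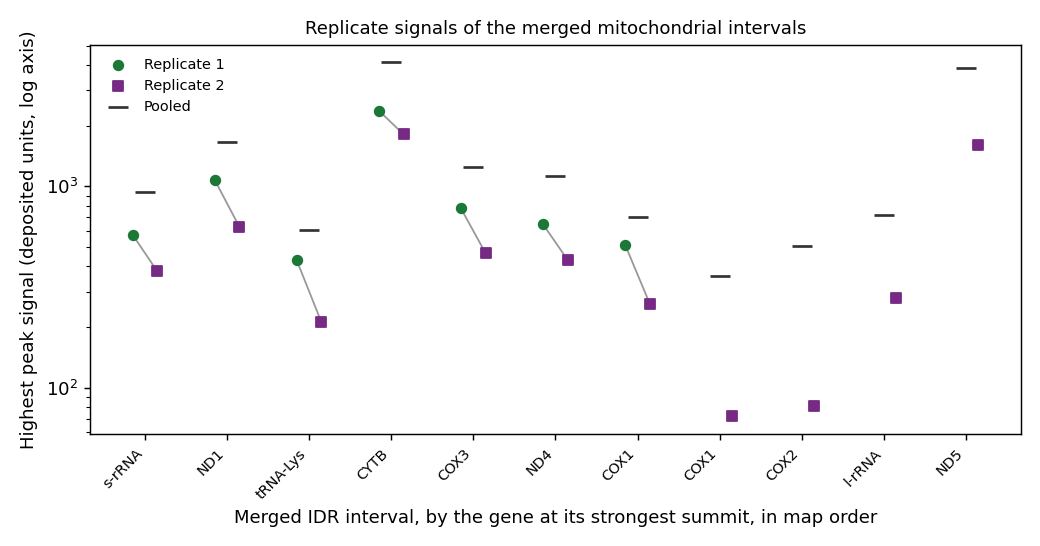
Highest peak signal of each of the 11 merged IDR intervals in map order, on a log axis in the authors' units, with circles for replicate 1, squares for replicate 2 and dashes for the pooled data. Lines join the 7 intervals listed in both replicates, where replicate 1 stands 1.31 to 2.03 times above replicate 2, and the last 4 intervals have no circle because replicate 1 listed no peak there.

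The 4 intervals without a replicate 1 peak were neighbours on the map, from the end of COX1 through COX2 and l-rRNA to ND5. The last mitochondrial base inside a replicate 1 peak was 9048, against 12614 in replicate 2. In the 7 shared intervals the pooled signal was 0.913 to 1.04 times the sum of both replicates. In the other 4 it exceeded the replicate 2 signal by 285.3 at the end of COX1, by 424.6 in COX2, by 441.1 in l-rRNA and by 2294 in ND5. A signal in replicate 1 therefore cannot be read as absent there, and why its list has no peak beyond this base was not tested.

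Most mitochondrial peaks stood above all nuclear ones in each list. In the IDR list the 15 mitochondrial signals ran from 197.8 through a median of 718.3 to 4128, against a nuclear median of 70.9 and a nuclear maximum of 245.4, so 14 of them exceeded every nuclear peak. All 10 mitochondrial peaks of replicate 1 exceeded its nuclear maximum of 149.8, and 11 of 14 in replicate 2 exceeded its nuclear maximum of 110.8. IDR peaks covered 31.2% of MtDNA, against 0.0992% of nuclear bases. Per replicate, peaks covered 33.8 ± 8.82% of MtDNA (SD, n = 2), against 8.27% of nuclear bases in replicate 1 and 9.77% in replicate 2. The mitochondrial share of summed peak signal was 2.2 ± 0.170% per replicate (SD, n = 2), from a molecule that is 0.0138% of the assembly by length. Copies of MtDNA were not measured, so their part in these heights was not tested.

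**Figure D5:**
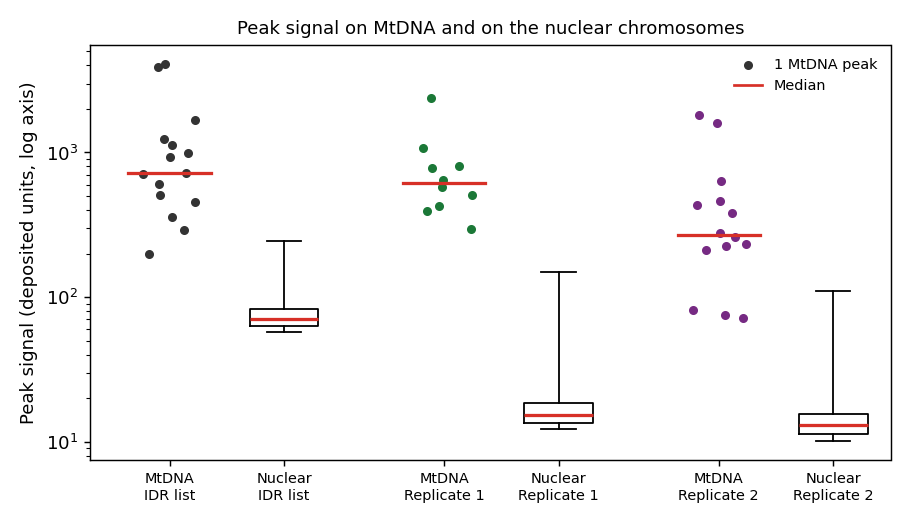
Peak signal on a log axis in the authors' units for the IDR list and each replicate, with 1 point per mitochondrial peak to the left of a box for the nuclear peaks (box from quartile to quartile, whiskers to the lowest and highest). Red lines are medians, at 718.3 for MtDNA and 70.9 for nuclear peaks in the IDR list.

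The shapes of the mitochondrial peaks differed from the nuclear ones in width. In the IDR list, 6 of 15 mitochondrial peaks had the common width of 436 bp, against 99.6% of nuclear peaks, and the rest were between 109 and 644 bp wide. In replicate 1, 8 of 10 mitochondrial peaks and 100% of nuclear peaks had the common width of that list, also 436 bp. In replicate 2, where the common width was 456 bp, the counts were 11 of 14 and 100%. Covered bases and gene counts on MtDNA therefore depend partly on widths set by the authors' peak calling, while summits do not. All 15 mitochondrial IDR peaks also carried 1 value of −log10 q, 1.13, so the q-value does not rank them.

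Of the nuclear genes that work with the mitochondrial ones, in the 3 lists examined, 1 had an HLH-12 summit of the IDR list in its promoter. A promoter was taken to begin 1000 bp before a gene's 5′ end and to stop 200 bp after it. Of 39 nuclear genes of the respiratory chain and ATP synthase, 1 had an IDR summit there, against 0.365% of all nuclear protein-coding genes. This was cox-6A, which encodes a subunit of cytochrome c oxidase. Its signal was 45.5 in replicate 1 and 39.7 in replicate 2. In the pooled list 10 of the 39 (25.6%) had a promoter summit, against 9.03% of all nuclear protein-coding genes. The replicates differed, with 12 of the 39 (30.8%) in replicate 1 and 21 (53.8%) in replicate 2. The shares of all nuclear protein-coding genes were 23.4% and 25.8%. By pooled signal, the complex I subunit nduf-9 came next after cox-6A, then the Rieske protein gene isp-1 and the complex I subunit nuo-2. Their replicate means were 29.7 ± 1.08, 20.7 ± 0.203 and 16 ± 4.12 (SD, n = 2). By replicate mean, genes of the 39 that are not named here stood above nuo-2. Of 70 mitochondrial ribosomal protein genes, 0 had an IDR summit, against the same 0.365%, and 10 (14.3%) a pooled one, against 9.03%. The strongest were mrpl-23, mrpl-32, mrpl-37 and mrps-35 with pooled signals of 52.0, 41.3, 38.1 and 35.6. Replicate 1 listed a promoter summit for 25 of the 70 (35.7%, against 23.4%) and replicate 2 for 21 (30%, against 25.8%).

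The 5 nuclear genes for copying and transcribing MtDNA had 0 IDR summits, against 0.365% of all nuclear protein-coding genes, and 3 pooled ones (60%), against 9.03%. These were hmg-5, which encodes an HMG-box protein that binds MtDNA, the DNA polymerase gamma gene polg-1 and the mitochondrial RNA polymerase gene rpom-1, with pooled signals of 36.9, 30.7 and 26.9. Replicate 1 listed a promoter summit for 1 of the 5, rpom-1, against 23.4% of all nuclear protein-coding genes, and replicate 2 for these 3, against 25.8%. The median pooled signal of the promoter summits was 30.8 for the respiratory chain, 30.4 for the mitochondrial ribosome and 30.7 for the maintenance genes, against 31.1 over all nuclear protein-coding genes with such a summit.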

How the data were processed

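ChIP-seq peak lists of 2 replicates in 1 group were used. Per the labels, the DNA was sheared by sonication. The authors deposited narrowPeak lists in ce11 and ce10, namely 1 relaxed list per replicate, 1 relaxed list of the pooled replicates and 1 IDR list. Their signal column is the authors' peak height in the units of their caller, the deposited −log10 q-value was the same for all mitochondrial peaks of a list, and p-values were not filled in. The summit column of the deposited lists is an offset (a position score) from the peak start. Depth, the aligner and the peak caller are not stated in those sources, so no interval for counting error could be made, and the number of replicates limits the precision.

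Positions count from 1. Gene bounds came from Ensembl release 115 for WBcel235, and names from RefSeq by overlap. All 36 genes matched a RefSeq gene with both ends within 75 bp. Overlapping peaks were merged before bases were counted. Windows were 50 bp on either side of a position, taken round the circle. Scripts ran in Python 3.11.15 with numpy 2.4.6, scipy 1.17.1 and matplotlib 3.10.9 and were checked on simulated intervals. With 1 group no test between groups was possible, and none was made. Named were all coding and rRNA genes, tRNA genes that held a summit or had no peak in any list, both longest noncoding stretches and, of each nuclear list, members with an IDR summit and up to 4 with the strongest pooled summits; tRNA genes reached without a summit were added after their values were seen. The members and lists were chosen with earlier results of these data known. Alternatives were the pooled and ce10 lists, stricter overlaps, the stronger peaks and each replicate alone; RefSeq gene bounds, overlap in both replicates and the GC and E-box alternatives were chosen after seeing the data.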

Additional observations from a re-analysis of the deposited data

How the results depend on the processing

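The 15 genes overlapped by IDR peaks stayed 15 with the pooled list, the ce10 list and RefSeq gene bounds, and were 11 or 12 when a summit inside or within 50 bp of the gene was required. They were 8 when at least 50% of the gene had to be covered, 8 with the 8 stronger peaks, and 12 to 15 from each replicate alone. The 4298 bases of MtDNA inside IDR peaks became 1515 with windows of 50 bp on either side of each summit, 2418 with the stronger peaks, and 3803 to 5524 from each replicate alone. The mitochondrial share of the IDR signal, 49.6%, was 50.1% in ce10 and 47.1% after merging overlapping peaks. It fell to 7.33% in the pooled list by construction, since that list holds the same mitochondrial peaks and more nuclear ones. In single replicates it was 2.08% to 2.32%, and those lists hold more nuclear peaks and also other sets of mitochondrial peaks. The mean signal of the strongest interval, 2094, was 1810 to 2377 in single replicates. The share of IDR summits above the median GC, 100%, was 90% to 100% in single replicates and 93.3% when 100 bp to each side were read. The E-box share, 46.7%, was 13.3% within 25 bp, 53.3% within 100 bp and 21.4% to 40.0% in single replicates, and the cause of these differences was not tested. No paired analysis was possible because the 2 replicates belong to 1 group. Depth is unknown, no control was analysed here, and absence from a list does not show absence of signal.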
